A study of Homo sapiens with 8 samples.

Results

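The gene products described here remove peroxides and keep protein thiols reduced with electrons that come from NADPH. They are the peroxiredoxins, glutathione peroxidases, thioredoxins, glutaredoxins, glutathione transferases, superoxide dismutases, catalase and methionine sulfoxide reductases, together with the enzymes that make and regenerate glutathione. The set held 41 gene symbols, taken by name from 58735 genes in the deposited table. SOD2 stood in 2 entries, so 42 entries were followed. RNA had been sequenced from LN229 cells, a line established from a human glioblastoma. For 4 samples, cells were kept for 48 h with 7.5 nM bortezomib, which blocks the proteasome, plus 15 nM panobinostat, which blocks histone deacetylases. This group is called the combination. The other 4 samples were the controls, which the treatment protocol gives as DMSO, the solvent, and a sample label as untreated. Both groups are the same line grown on plates, and neither drug was given alone in the samples analysed here. The extraction text speaks of brain tissue, although the labels name LN229 cells for all 8 samples.

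In background terms, glutathione is a small thiol that cells keep at high concentration, and thioredoxin is a small protein with a reactive thiol pair. Peroxidases pass the oxidising power of hydrogen peroxide or lipid peroxides on to one of these thiols, and glutathione reductase or thioredoxin reductase then restores it. In glioma cells these systems are known for handling the oxidants that metabolism and protein folding produce. The comparison addresses how the RNA of these enzymes stood after the drug pair relative to solvent.

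Levels are given in FPKM, reads scaled by gene length and by library size, so that levels of different genes can be set side by side per length. A gene was tested where its mean over the 8 samples was at least 1 FPKM. A call needed an adjusted p (Benjamini-Hochberg) under 0.05 from limma on log2(FPKM + 1). Fold changes are combination over DMSO on that scale, which understates the change of low genes. Means are given ± SD over 4 samples in each group, and log2 fold changes ± SE. Libraries held 15198520 to 17324292 reads in combination samples and 15189251 to 16795929 reads in DMSO samples, and 3 reads in a gene of 1 kb correspond to 0.172 to 0.197 FPKM, a limit that covers counting error only. The mitochondrial share of reads was 13.6% ± 1.62 in combination samples and 5.47% ± 0.976 in DMSO samples (SD, n = 4 each, two-sided exact permutation p = 0.0286, the smallest this design allows), and its part in the results was not tested beyond the scaling to nuclear reads reported in the closing section. The labels do not say whether the 4 samples of a group were separate cultures. The p-values therefore reflect only sample-to-sample spread, which could be technical. In bulk RNA, fewer cells of a type and less RNA per cell cannot be told apart.

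Of the 10 markers of glioma lines, 8 were tested, of which 1 was higher and 5 were lower after the combination. Their summed level was 253.5 to 268.4 FPKM in combination samples and 873.4 to 899.9 FPKM in DMSO samples. VIM, NES and SOX2 were present in all samples but were lower after the combination. Their means were 116, 58.6 and 5.77 FPKM in combination samples and 315, 188 and 54.3 FPKM in DMSO samples. S100B and FABP7 were also lower, and OLIG2 was the higher one. GFAP was near 0 in both groups (0.0414 and 0.220 FPKM). The 5 oligodendrocyte markers summed to 9.08 to 9.63 FPKM in combination samples and 81.05 to 97.2 FPKM in DMSO samples, with MBP near 0 in both groups. The 6 neuron markers summed to 24.6 to 26.9 FPKM in combination samples and 14.8 to 15.7 FPKM in DMSO samples. They did not move together: of 5 tested, 3 were higher (SLC17A7, SNAP25 and SYN1) and 2 were lower (GAD1 and SYT1). SLC17A7 and SYN1 reached the minimum level of 1 FPKM through the combination samples alone, so they had to differ. Beside these counts and those of the glioma markers, 36.9% of all 13296 tested genes were called higher and 41% lower. Summed markers of immune cells (6 genes, with AIF1 at 0 in all samples) were 0.567 to 1.12 FPKM in combination samples and 0.177 to 0.504 FPKM in DMSO samples. Endothelial markers (5 genes) summed to 0.949 to 1.33 FPKM in combination samples and 0.294 to 0.463 FPKM in DMSO samples, and epithelial markers (4 genes) to 1.32 to 1.47 FPKM in combination samples and 2.97 to 4.19 FPKM in DMSO samples. The part of these shifts in the results below was not tested.

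Most of the enzymes were higher after the combination, but the change was uneven within nearly every family. Of 36 tested entries, 22 were higher, 11 were lower and 3 were not called. Among all 13296 genes tested, 36.9% were called higher and 41% lower (77.8% in either direction), so the 11 lower members (30.6% of those tested) are no more than the background share, and the 22 higher members (61.1%) stand above it. The median change of the tested members was 0.37 on the log2 scale, beside -0.03 over all tested genes. Members were chosen with earlier results of these data known, so these shares and medians describe the set and do not test it. A log2 change of at least 1 was reached upward by 7 members, against 8.84% of all tested genes, and downward by 3 members, against 11.1%. On the log2(FPKM + 1) scale these 10 genes were GPX3, PRDX1, GSR, MGST3, MGST1, GLRX, MSRB1, GPX1, GPX8 and GPX7. That scale shrinks the change of low genes: by the ratio of mean FPKM, SOD2 (2.314 times the DMSO mean) and MSRA (42.65% of the DMSO mean) also differed by more than 2-fold. The samples of the groups did not overlap for 22 higher members (34.2% of all tested genes) and 10 lower members (38.5%, or 72.7% in either direction). GPX3 reached the minimum level only through the combination samples, so it had to differ. The other 35 tested members split into 21 higher and 11 lower, with a median of 0.29.

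**Figure D1:**
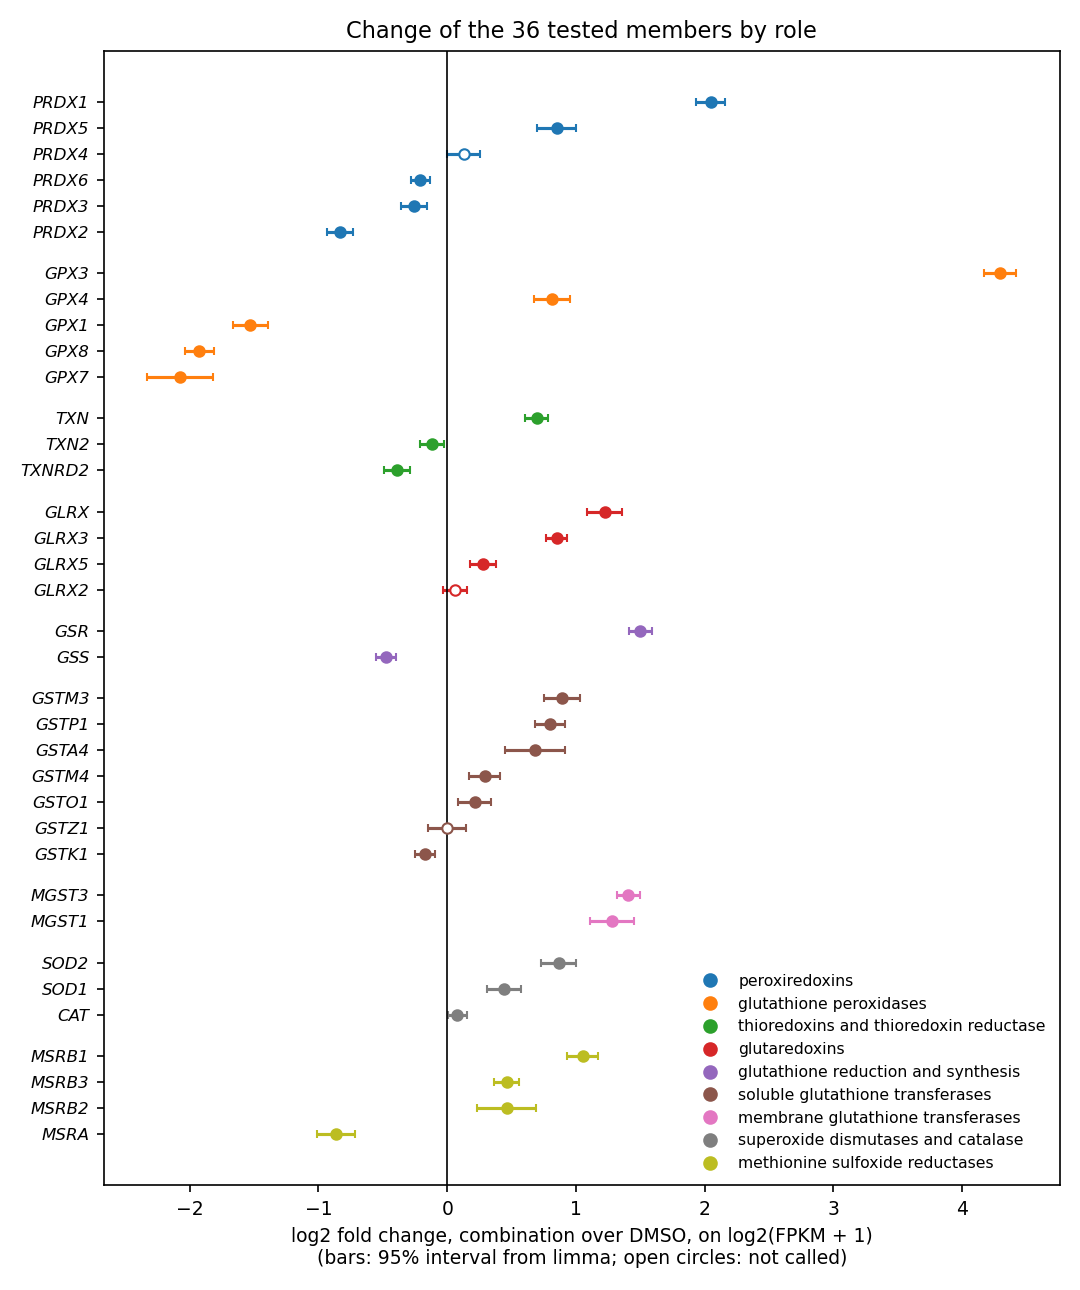
Log2 fold change on log2(FPKM + 1), combination over DMSO, of the 36 tested members, grouped by role, with 95% intervals from limma and open circles for genes that were not called. GPX3 stands farthest to the right at 4.30 and GPX7 farthest to the left at -2.08, and most families hold members on both sides of 0.

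The peroxiredoxins reduce peroxides through a reactive cysteine and are the main users of thioredoxin. As a family they were more abundant after the combination, and PRDX1, the cytosolic and nuclear member, made up most of the difference. PRDX1 (chr1:45511036-45523047 on GRCh38, minus strand) stood at 681, 678, 755 and 695 FPKM in combination samples and at 177, 174, 168 and 158 FPKM in DMSO samples. The groups lay far apart. The log2 fold change of PRDX1 was 2.05 ± 0.0493 (SE, adjusted p = 5.51e-10), and it ranked 35th among the tested genes by mean level in combination samples and 174th in DMSO samples. Exons of MMACHC on the opposite strand cover 24.9% of the exon length of PRDX1. MMACHC itself had 223 reads over the combination samples and 75 over the DMSO samples, while PRDX1 had 68301 reads over the combination samples and 16988 over the DMSO samples.

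PRDX5, found in mitochondria, peroxisomes and the cytosol, was the most abundant peroxiredoxin in DMSO and ranked behind PRDX1 after the combination. It was also higher, at 396 ± 35.3 FPKM in combination samples and 219 ± 11.8 FPKM in DMSO samples, and its log2 fold change was 0.85 ± 0.0667 (SE, adjusted p = 1.81e-06). In contrast, PRDX2, the second cytosolic enzyme of the same mechanism as PRDX1, was lower, at 22.1, 22.1, 25.1 and 24.1 FPKM in combination samples and 42.8, 42.7, 41.4 and 42.7 FPKM in DMSO samples. Its log2 fold change was -0.83 ± 0.0442 (SE, adjusted p = 1.10e-07). PRDX1 and PRDX2 thus moved in opposite directions, and no sample of PRDX2 in one group reached a sample of the other. Smaller decreases were seen for PRDX3, the mitochondrial enzyme, at 26.9 ± 0.739 FPKM in combination samples and 32.4 ± 1.91 FPKM in DMSO samples (log2 fold change -0.26 ± 0.0435 SE, adjusted p = 0.000432), and for PRDX6, which reduces phospholipid peroxides with glutathione, at 97.4 ± 2.84 FPKM in combination samples and 113 ± 2.97 FPKM in DMSO samples (log2 fold change -0.21 ± 0.0327 SE, adjusted p = 0.000249).

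PRDX4, which works in the endoplasmic reticulum, was not called. Its samples stood at 43.7, 41.4, 47.1 and 40.1 FPKM after the combination and at 41.7, 38.1, 37.2 and 40.4 FPKM in DMSO. These ranges overlapped, and the log2 fold change was 0.13 ± 0.0555 (SE, adjusted p = 0.0616), with a 95% interval of 0.00 to 0.25 before adjustment. PRDX4 passed the threshold under 6 of 19 alternative settings, among them 3 scalings, and also without combination sample 4 (log2 fold change 0.16, adjusted p = 0.0293) or without DMSO sample 1 (log2 fold change 0.15, adjusted p = 0.0403). Summed over the 6 peroxiredoxins, the level was 1289 ± 72.04 FPKM in combination samples and 615 ± 18.7 FPKM in DMSO samples (SD, n = 4 each), a ratio of 2.097. PRDX1 alone held 54.5% ± 0.66 of that sum in combination samples and 27.5% ± 0.930 in DMSO samples. The share of PRDX2 was 1.81% ± 0.0371 in combination samples and 6.89% ± 0.173 in DMSO samples.

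The glutathione peroxidases reduce peroxides with glutathione. Their log2 fold changes ran from -2.08 to 4.30, the widest span of the 9 families, with 2 of 5 tested members higher and 3 lower. The shares over all tested genes were 36.9% higher and 41% lower, and GPX3, among the higher members, had to differ. In GPX1, GPX3 and GPX4 the catalytic residue is selenocysteine, encoded by a TGA codon that is read through with the help of an element in the RNA, whereas GPX7 and GPX8 have cysteine there. The coding bases around the catalytic codon are shown because both cysteine enzymes were lower while the selenocysteine enzymes went both ways. Sequences are 5′ to 3′ from GENCODE 29 transcripts, with the codon in capitals (TGA for selenocysteine, TGC for cysteine). On GRCh38 the codons lie at chr3:49358132-49358134 on the minus strand for GPX1, and on the plus strand at chr5:151025469-151025471 for GPX3, chr19:1105403-1105405 for GPX4, chr1:52606714-52606716 for GPX7 and chr5:55161024-55161026 for GPX8.
GPX1: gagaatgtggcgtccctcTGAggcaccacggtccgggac
GPX3: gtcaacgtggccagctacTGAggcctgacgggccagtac
GPX4: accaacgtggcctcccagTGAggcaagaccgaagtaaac
GPX7: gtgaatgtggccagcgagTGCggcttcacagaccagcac
GPX8: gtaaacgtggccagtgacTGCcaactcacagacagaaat

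GPX3, a secreted enzyme known from blood plasma, had the largest change of all the members. It stood at 36.3, 33.7, 36.4 and 35.8 FPKM in combination samples and at 0.945, 0.673, 0.909 and 0.921 FPKM in DMSO samples, from 1750 to 1822 reads per combination library and 34 to 52 reads per DMSO library. Every combination sample was thus far above every DMSO sample. As GPX3 reached the minimum level only through the combination samples, it had to differ. The mean level was 41.25 times that of DMSO, and the log2 fold change was 4.30 ± 0.0547 (SE, adjusted p = 2.65e-11). Because the DMSO level is close to the added pseudocount, the fitted log2 fold change ranged from 2.79 to 5.29 over the alternative settings. GPX3 lies at chr5:151020438-151028993 on the plus strand and shares no exon with another gene in GENCODE 29.

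GPX4, which reduces lipid peroxides within membranes, was higher as well, at 109, 108, 125 and 117 FPKM in combination samples and 70.5, 59.6, 62.2 and 67.02 FPKM in DMSO samples, and its log2 fold change was 0.82 ± 0.0626 (SE, adjusted p = 1.56e-06). The groups did not overlap. GPX1, the general enzyme of cytosol and mitochondria, went the other way. It stood at 122, 111, 135 and 126 FPKM in combination samples and 353, 351, 348 and 377 FPKM in DMSO samples, so that the combination mean was 34.55% of the DMSO mean. The log2 fold change was -1.53 ± 0.0590 (SE, adjusted p = 1.24e-08). By mean level GPX1 ranked 272nd among tested genes after the combination and 64th in DMSO. GPX1 lies at chr3:49357171-49358600, and GENCODE 29 lists it as a polymorphic pseudogene.

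The cysteine enzymes GPX7 and GPX8 both belong to the endoplasmic reticulum, where they use peroxide in oxidative protein folding, and both were lower. GPX7 stood at 1.44, 1.28, 1.82 and 2.36 FPKM in combination samples and 9.86, 9.97, 10.4 and 11.2 FPKM in DMSO samples, or 16.64% of the DMSO mean, and its log2 fold change was -2.08 ± 0.112 (SE, adjusted p = 1.23e-07). For GPX8 the samples stood at 2.46, 2.52, 2.87 and 2.68 FPKM after the combination and at 12.99, 13.5, 12.5 and 12.2 FPKM in DMSO, 20.59% of the DMSO mean, and its log2 fold change was -1.92 ± 0.0487 (SE, adjusted p = 7.45e-10). Neither gene had an overlap between groups. Between 37 and 64 reads lay behind each combination value of GPX7, and its log2 fold change ranged from -2.69 to -1.19 over the settings. GPX2, the enzyme of gut epithelium, was under the minimum level at 0.107 ± 0.104 FPKM in combination samples and 0.173 ± 0.116 FPKM in DMSO samples and was not tested.

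**Figure D2:**
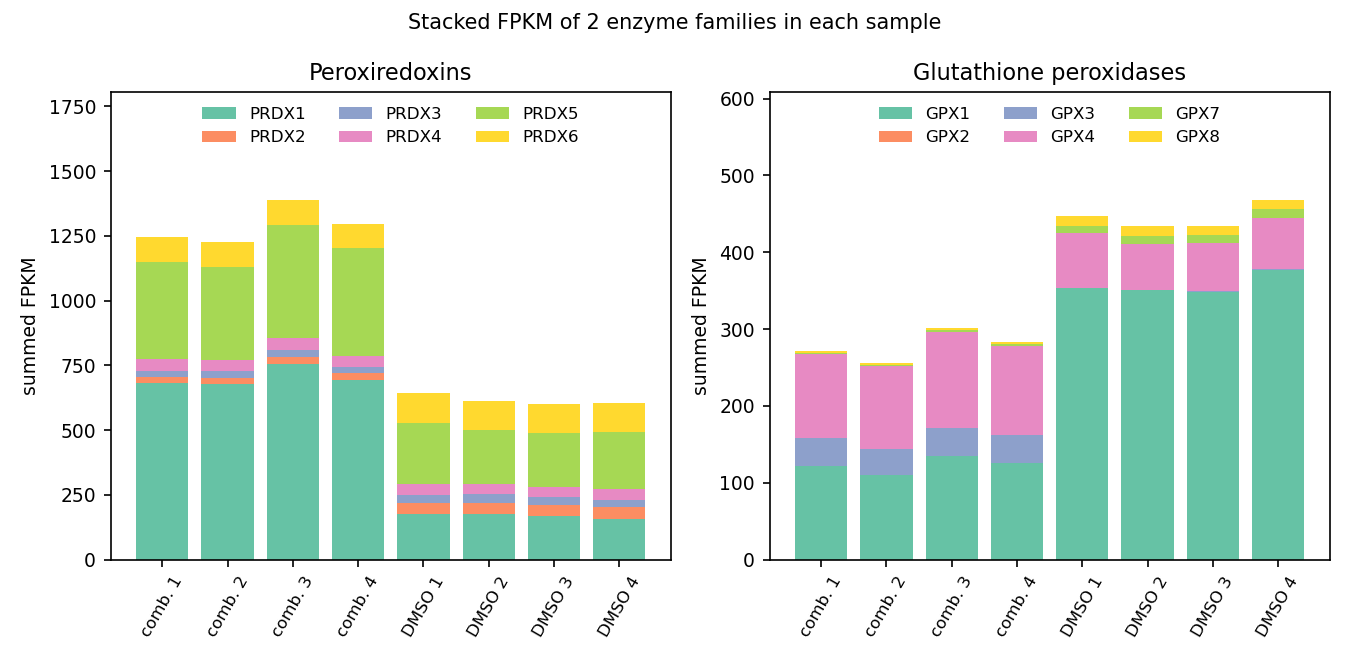
Stacked FPKM of the peroxiredoxins (left) and the glutathione peroxidases (right) in each combination sample and each DMSO sample, 1 bar per sample. The peroxiredoxin bars are about 2.097 times as high after the combination, with PRDX1 as the largest block, while the glutathione peroxidase bars are lower and GPX4 and GPX3 take up more of them.

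Summed over the family, glutathione peroxidases reached 278 ± 19.1 FPKM in combination samples and 446 ± 15.9 FPKM in DMSO samples (SD, n = 4 each), a ratio of 0.6236. GPX1 held 44.3% ± 0.820 of it in combination samples and 80.05% ± 0.791 in DMSO samples. GPX4 held 41.3% ± 0.814 in combination samples and 14.5% ± 0.861 in DMSO samples. GPX3 held 12.8% ± 0.566 after the combination and 0.193% ± 0.0262 in DMSO.

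GENCODE 29 annotates selenocysteine in GPX1, GPX2, GPX3, GPX4, TXNRD2 and MSRB1, of which 5 were tested, with 3 higher and 2 lower. Among 13 other tested selenoprotein genes, 4 were higher and 6 were lower, beside 36.9% higher and 41% lower over all tested genes, so these counts show nothing particular to selenoproteins. Examples are SELENOK, a protein of the endoplasmic reticulum membrane, at 50.02 ± 3.17 FPKM in combination samples and 32.8 ± 2.86 FPKM in DMSO samples (log2 fold change 0.60 ± 0.0654 SE, adjusted p = 2.06e-05), and SELENON, also of that membrane, at 28.4 ± 0.978 FPKM in combination samples and 86.1 ± 1.75 FPKM in DMSO samples (log2 fold change -1.57 ± 0.0322 SE, adjusted p = 2.11e-10). Of 7 tested genes for making and inserting selenocysteine, 3 were higher and 2 were lower. SECISBP2, which binds the read-through element, stood at 6.03 ± 0.159 FPKM in combination samples and 3.75 ± 0.287 FPKM in DMSO samples, and SEPHS1, a selenophosphate synthetase relative, at 6.65 ± 0.228 FPKM in combination samples and 12.9 ± 0.957 FPKM in DMSO samples. The log2 fold change was 0.57 ± 0.0496 (SE, adjusted p = 4.09e-06) for SECISBP2 and -0.86 ± 0.0519 (SE, adjusted p = 2.71e-07) for SEPHS1.

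**Figure D3:**
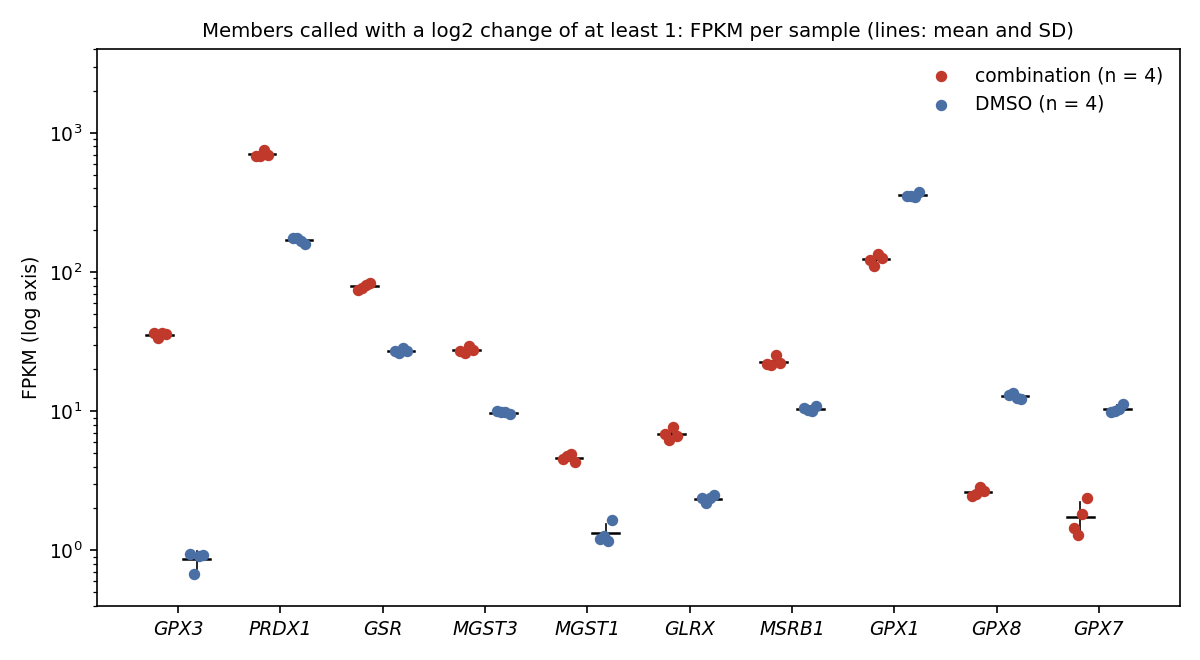
FPKM on a log axis of the 10 members called with a log2 change of at least 1, in 4 combination samples (left of each pair) and 4 DMSO samples, with lines for mean and SD. For each of these genes the points of both groups are separate, and GPX3 has the widest gap (mean 35.6 FPKM after the combination and 0.862 FPKM in DMSO). GPX3 reached the minimum level in the combination alone and had to differ.

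Thioredoxins hand electrons to the peroxiredoxins, to ribonucleotide reductase and to the methionine sulfoxide reductases. TXN was higher, and the mitochondrial TXN2 and TXNRD2 were lower. TXN, the cytosolic protein, stood at 267, 259, 289 and 271 FPKM in combination samples and at 171, 172, 164 and 163 FPKM in DMSO samples. The groups were clear of each other, and the log2 fold change was 0.69 ± 0.0402 (SE, adjusted p = 2.03e-07). TXN2, the mitochondrial protein, was slightly lower, at 40.2, 40.3, 43.7 and 40.7 FPKM in combination samples and 47.7, 43.8, 44.8 and 42.9 FPKM in DMSO samples. These ranges overlapped, the log2 fold change was -0.12 ± 0.0417 (SE, adjusted p = 0.0270), and the call was lost under 8 of 19 alternative settings. These include leaving out combination sample 1, 2 or 4 or DMSO sample 1 or 3, with log2 fold changes of -0.12 to -0.09 and adjusted p-values of 0.0551 to 0.072. Scaling mattered more: the log2 fold change was -0.03 with upper-quartile factors (adjusted p = 0.618) and -0.06 with nuclear reads (adjusted p = 0.182). The call was also lost with no filter on low values (adjusted p = 0.0526). TXNRD2, the mitochondrial thioredoxin reductase, was lower at 3.87 ± 0.196 FPKM in combination samples and 5.38 ± 0.226 FPKM in DMSO samples (log2 fold change -0.39 ± 0.0453 SE, adjusted p = 3.15e-05).

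Genes that work with this system outside the set were counted over a list of 11, of which 10 were tested, 5 were higher and 2 were lower. Over all tested genes, 36.9% were higher and 41% lower. TXNRD1, TXNRD3, SELENOT and SELENOW stand both in this list and among the other selenoproteins. TXNRD1, the cytosolic thioredoxin reductase and a selenoprotein, had 157 ± 3.17 FPKM in combination samples and 62.7 ± 3.03 FPKM in DMSO samples, and its log2 fold change was 1.31 ± 0.0383 (SE, adjusted p = 1.83e-09), the direction of TXN. SRXN1, sulfiredoxin, which repairs overoxidised peroxiredoxins, stood at 45.6, 41.6, 41.8 and 56.4 FPKM in combination samples and 4.88, 5.16, 5.53 and 6.67 FPKM in DMSO samples. Its groups did not overlap, and the log2 fold change was 2.85 ± 0.110 (SE, adjusted p = 1.22e-08). Lower were TXNDC12, a thioredoxin-like protein of the endoplasmic reticulum, at 2.39 ± 0.233 FPKM in combination samples and 5.25 ± 0.435 FPKM in DMSO samples (log2 fold change -0.88 ± 0.0673 SE, adjusted p = 1.50e-06), and SELENOW, a small selenoprotein, at 6.33 ± 0.279 FPKM in combination samples and 12.1 ± 0.825 FPKM in DMSO samples (log2 fold change -0.84 ± 0.0522 SE, adjusted p = 3.40e-07). TXNIP, which binds and inhibits thioredoxin, had the second largest increase of the list, and its log2 fold change was 2.13 ± 0.0550 (SE, adjusted p = 8.52e-10).

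Glutaredoxins remove glutathione from proteins or carry iron-sulfur clusters, and 3 of the 4 were higher, beside 36.9% of all tested genes. GLRX, the cytosolic enzyme with a pair of active-site cysteines, stood at 6.86, 6.24, 7.66 and 6.59 FPKM in combination samples and at 2.38, 2.18, 2.36 and 2.48 FPKM in DMSO samples. No sample crossed over, and the log2 fold change was 1.22 ± 0.0607 (SE, adjusted p = 6.90e-08), with a range of 0.69 to 1.499 over the settings. GLRX3, a cytosolic iron-sulfur cluster carrier, had 24.0 ± 0.840 FPKM in combination samples and 12.9 ± 0.344 FPKM in DMSO samples (log2 fold change 0.85 ± 0.0347 SE, adjusted p = 1.81e-08). GLRX5, its mitochondrial counterpart and the most abundant glutaredoxin, stood at 25.8, 26.1, 27.5 and 26.6 FPKM in combination samples and 21.9, 20.9, 20.5 and 23.5 FPKM in DMSO samples. That is a small difference without overlap, and the log2 fold change was 0.28 ± 0.0446 (SE, adjusted p = 0.000305). For GLRX5, 18.2% of the exon length lies under SNHG10 and SCARNA13 on the opposite strand.

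GLRX2, a mitochondrial and nuclear glutaredoxin, was not called. It had 5.41, 5.96, 5.69 and 5.35 FPKM in combination samples and 5.41, 5.14, 5.35 and 5.40 FPKM in DMSO samples. The ranges overlapped, and the log2 fold change was 0.06 ± 0.0415 (SE, adjusted p = 0.205). It passed the threshold as higher under 3 of 19 settings, namely scaling by upper-quartile factors, scaling by nuclear reads and quantile normalization.

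Of the 2 members that supply reduced glutathione, GSR was higher and GSS was lower. GSR, glutathione reductase, which uses NADPH to regenerate glutathione, stood at 74.6, 77.4, 80.3 and 82.99 FPKM in combination samples and 27.1, 26.2, 28.3 and 27.1 FPKM in DMSO samples. All combination samples were above all DMSO samples, and the log2 fold change was 1.501 ± 0.0393 (SE, adjusted p = 9.34e-10). GSS, which carries out the last step of glutathione synthesis, was lower at 12.5 ± 0.417 FPKM in combination samples and 17.8 ± 0.437 FPKM in DMSO samples (log2 fold change -0.48 ± 0.0338 SE, adjusted p = 8.75e-07). The rate-limiting step before it is the work of glutamate-cysteine ligase. Both of its subunits were higher, the catalytic GCLC at 9.12 ± 0.280 FPKM in combination samples and 4.005 ± 0.350 FPKM in DMSO samples (log2 fold change 1.02 ± 0.0537 SE, adjusted p = 1.07e-07) and the modifier GCLM at 35.7 ± 1.33 FPKM in combination samples and 13.5 ± 0.445 FPKM in DMSO samples (log2 fold change 1.34 ± 0.0370 SE, adjusted p = 1.27e-09).

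In the wider list of 17 glutathione genes, 16 were tested, of which 7 were higher and 8 were lower. The shares over all tested genes were 36.9% higher and 41% lower. SLC7A11, the transporter that imports cystine for glutathione synthesis, was lower and stood at 6.34, 6.09, 6.22 and 6.54 FPKM in combination samples and 17.1, 19.2, 18.2 and 16.4 FPKM in DMSO samples. The groups were widely separate, and the log2 fold change was -1.36 ± 0.0502 (SE, adjusted p = 9.18e-09). GGT1, which splits glutathione outside the cell, was higher at 6.42 ± 0.421 FPKM in combination samples and 0.247 ± 0.0428 FPKM in DMSO samples (log2 fold change 2.57 ± 0.0604 SE, adjusted p = 4.69e-10). It reached the minimum level through the combination samples alone, so it had to differ as well. OPLAH, 5-oxoprolinase of the glutathione cycle, was lower at 0.423 ± 0.141 FPKM in combination samples and 3.97 ± 0.253 FPKM in DMSO samples (log2 fold change -1.81 ± 0.0846 SE, adjusted p = 4.57e-08). It reached the minimum level through the DMSO samples alone, so it had to differ.

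NADPH is the electron source for GSR and for the thioredoxin reductases. Of 12 tested NADPH-supplying genes, 4 were higher and 6 were lower, beside 36.9% higher and 41% lower over all tested genes. ME1, cytosolic malic enzyme, was higher at 23.7 ± 0.755 FPKM in combination samples and 8.95 ± 0.497 FPKM in DMSO samples (log2 fold change 1.31 ± 0.0423 SE, adjusted p = 3.53e-09). Lower were NNT, the transhydrogenase of the mitochondrial inner membrane, at 3.86 ± 0.0694 FPKM in combination samples and 15.4 ± 0.398 FPKM in DMSO samples (log2 fold change -1.75 ± 0.0325 SE, adjusted p = 1.27e-10), and IDH2, mitochondrial isocitrate dehydrogenase, at 6.42 ± 0.733 FPKM in combination samples and 16.2 ± 0.713 FPKM in DMSO samples (log2 fold change -1.21 ± 0.0668 SE, adjusted p = 1.44e-07).

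**Figure D4:**
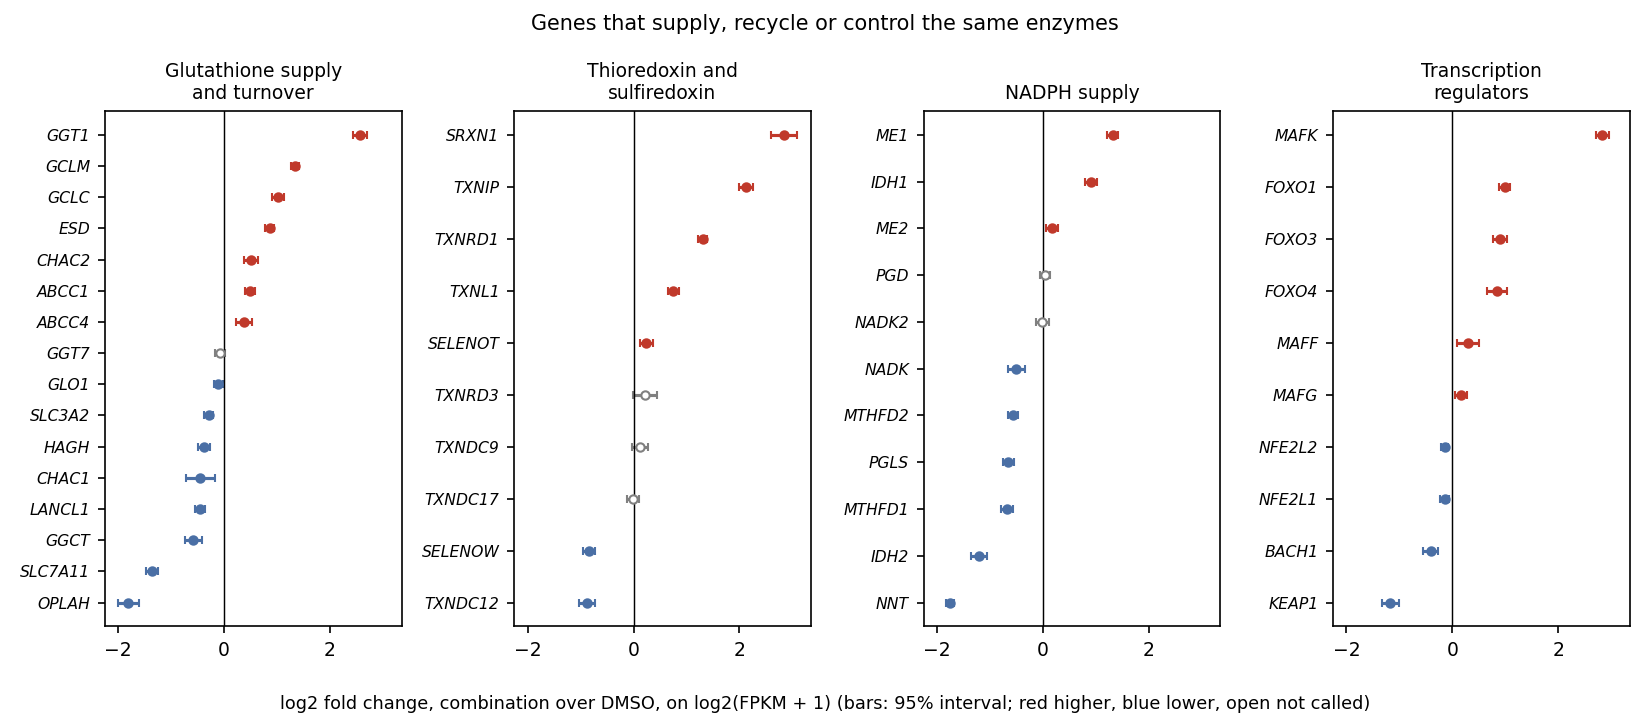
Log2 fold change on log2(FPKM + 1), combination over DMSO, with 95% intervals, of the tested genes shown from 4 lists that supply, recycle or control the same enzymes (red higher, blue lower, open not called). Each list has genes on both sides of 0, with SRXN1 at 2.85 and MAFK at 2.84 far to the right and SLC7A11 at -1.36 and NNT at -1.75 far to the left. GGT1 and OPLAH reached the minimum level in 1 group alone and had to differ.

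The soluble glutathione transferases join glutathione to electrophiles. Of 9 members 7 were tested, of which 5 were higher, 1 was lower and 1 was not called. Over all tested genes, 36.9% were higher and 41% lower (77.8% in either direction). GSTP1, the pi-class enzyme and by far the most abundant, stood at 377, 371, 435 and 403 FPKM in combination samples and at 226, 235, 222 and 224 FPKM in DMSO samples. There was no overlap, and the log2 fold change was 0.80 ± 0.0527 (SE, adjusted p = 5.18e-07). GSTM3, the mu-class enzyme of brain and testis, and GSTA4, which handles the lipid peroxidation product 4-hydroxynonenal, were also higher. GSTM3 had 13.3 ± 1.06 FPKM in combination samples and 6.73 ± 0.475 FPKM in DMSO samples (log2 fold change 0.89 ± 0.0627 SE, adjusted p = 8.27e-07), and GSTA4 had 8.71 ± 0.483 FPKM in combination samples and 5.10 ± 1.01 FPKM in DMSO samples (log2 fold change 0.68 ± 0.102 SE, adjusted p = 0.000192). Smaller increases were found for GSTM4, another mu-class enzyme, at 7.10 ± 0.343 FPKM in combination samples and 5.63 ± 0.428 FPKM in DMSO samples (log2 fold change 0.29 ± 0.0543 SE, adjusted p = 0.000831), and for GSTO1, the omega-class enzyme, at 33.9 ± 1.91 FPKM in combination samples and 29.1 ± 1.95 FPKM in DMSO samples (log2 fold change 0.21 ± 0.0555 SE, adjusted p = 0.00612).

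GSTK1, the kappa-class enzyme of mitochondria and peroxisomes, was the lower one, with 20.4, 20.3, 21.8 and 21.4 FPKM in combination samples and 23.6, 23.8, 23.03 and 24.7 FPKM in DMSO samples. The difference was small but without overlap. Its log2 fold change was -0.17 ± 0.0348 (SE, adjusted p = 0.00132), and with upper-quartile factors it was no longer called (adjusted p = 0.0633). GSTZ1, which acts in tyrosine breakdown, did not pass the test, at 1.37 ± 0.103 FPKM in combination samples and 1.38 ± 0.0854 FPKM in DMSO samples (log2 fold change -0.00 ± 0.0651 SE, adjusted p = 0.975, 95% interval -0.15 to 0.14). GSTM1 had 0 reads in all 8 samples, where 3 reads would be 0.0687 to 0.0784 FPKM. GSTM2 had 30 to 60 reads per combination library and 42 to 57 per DMSO library, under the minimum level. The mu-class genes lie side by side on chromosome 1. Exons of neighbouring genes cover 38.26% of the exon length of GSTM1, 10.25% of that of GSTM2 and 6.53% of that of GSTM4, and the mu-class enzymes are alike in sequence, so their values are less certain.

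The membrane-bound transferases also reduce lipid peroxides. MGST3, the more abundant one, stood at 26.9, 26.3, 29.6 and 27.6 FPKM in combination samples and 9.97, 9.81, 9.80 and 9.51 FPKM in DMSO samples. MGST1, of the mitochondrial outer membrane and the endoplasmic reticulum, had 4.50, 4.79, 4.90 and 4.32 FPKM in combination samples and 1.21, 1.27, 1.16 and 1.66 FPKM in DMSO samples. Both genes were separate between groups in all samples. The log2 fold changes were 1.41 ± 0.0395 (SE, adjusted p = 1.40e-09) for MGST3 and 1.28 ± 0.0747 (SE, adjusted p = 2.16e-07) for MGST1, and that of MGST1 ranged from 0.61 to 1.75 over the settings. MGST2, which also makes leukotriene C4, had 0 to 2 reads per combination library and 3 to 8 reads per DMSO library and was not tested. Of the other transferase and peroxidase genes outside the set, 15 were in the table and 3 were tested: PTGES, a prostaglandin E synthase of the same membrane family, was higher at 15.7 ± 0.680 FPKM in combination samples and 2.49 ± 0.184 FPKM in DMSO samples (log2 fold change 2.26 ± 0.0498 SE, adjusted p = 3.19e-10), and GSTT2B and GSTCD were lower. GSTT2B, a theta-class transferase with a near-identical copy in GSTT2, had 8.32 ± 1.63 FPKM in combination samples and 20.9 ± 2.68 FPKM in DMSO samples (log2 fold change -1.24 ± 0.135 SE, adjusted p = 1.98e-05), and its value is uncertain for that reason. GSTCD had 1.54 ± 0.150 FPKM in combination samples and 3.35 ± 0.271 FPKM in DMSO samples (log2 fold change -0.77 ± 0.0662 SE, adjusted p = 3.50e-06). Beside the counts of this list, 36.9% of all tested genes were higher and 41% lower.

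Superoxide dismutases turn superoxide into hydrogen peroxide, which catalase removes in peroxisomes. SOD1, the abundant cytosolic copper-zinc enzyme, stood at 121, 123, 138 and 129 FPKM in combination samples and 101, 93.8, 94.6 and 85.5 FPKM in DMSO samples, and its log2 fold change was 0.44 ± 0.0580 (SE, adjusted p = 7.29e-05). The ranges did not overlap. SOD2, the mitochondrial manganese enzyme, was higher at 3.84 ± 0.140 FPKM in combination samples and 1.66 ± 0.182 FPKM in DMSO samples (log2 fold change 0.87 ± 0.0611 SE, adjusted p = 8.38e-07). Its annotated exons add up to 16493 bases, and its FPKM is divided by that length. The second SOD2 entry had at most 2 reads in any library, with 90.5% of its exon length under other genes. SOD3, the extracellular enzyme, stood at 0.0295 ± 0.0427 FPKM in combination samples and 0.0419 ± 0.0523 FPKM in DMSO samples. Neither was tested.

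CAT, catalase, stood at 19.995, 20.6, 20.2 and 20.2 FPKM in combination samples and at 19.8, 18.9, 18.3 and 19.5 FPKM in DMSO samples. The combination samples were all above the DMSO samples, but the shift was small, and the log2 fold change was 0.08 ± 0.0320 (SE, adjusted p = 0.0496). This call was lost under 11 of 19 alternative settings, including scaling by library totals (adjusted p = 0.81), voom on the recovered reads (adjusted p = 0.847) and both other filters. It was also lost without any 1 of the combination samples and without DMSO sample 2 or 3, with log2 fold changes of 0.06 to 0.08 and adjusted p-values of 0.0709 to 0.14. Over the settings the log2 fold change of CAT ranged from 0.01 to 0.18. Genes whose products make superoxide or peroxide gave 5 tested of 15, of which 2 were higher and 2 were lower. Among all tested genes, 36.9% were higher and 41% lower. Higher were ERO1A, which feeds oxidising power into protein folding, at 16.5 ± 0.277 FPKM in combination samples and 11.4 ± 0.736 FPKM in DMSO samples (log2 fold change 0.50 ± 0.0436 SE, adjusted p = 4.04e-06), and MAOA, a monoamine oxidase, at 1.69 ± 0.163 FPKM in combination samples and 0.864 ± 0.136 FPKM in DMSO samples (log2 fold change 0.53 ± 0.0814 SE, adjusted p = 0.000228). MAOA reached the minimum level through the combination samples alone. AIFM1, a mitochondrial flavoprotein, was lower at 13.2 ± 0.932 FPKM in combination samples and 15.7 ± 0.576 FPKM in DMSO samples (log2 fold change -0.24 ± 0.0496 SE, adjusted p = 0.00155). NOX4 had under 3 reads in every library.

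**Figure D5:**
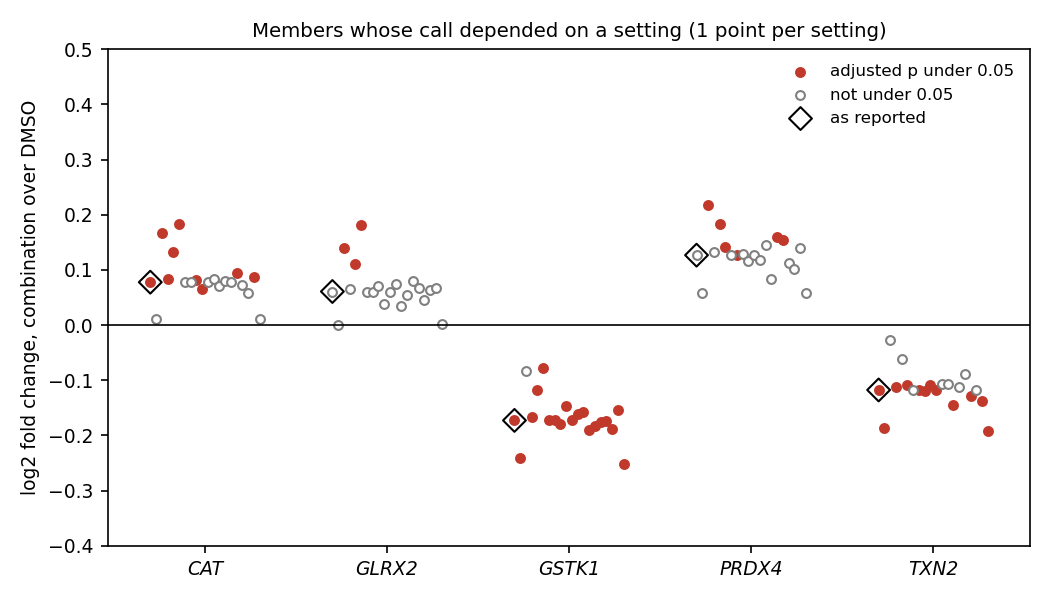
Log2 fold change, combination over DMSO, of the 5 members whose call depended on a setting, 1 point per setting, with the reported value marked by a diamond and filled points for an adjusted p under 0.05. All values lie between -0.25 and 0.22, and none of the 5 genes has points on both sides of 0.

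Methionine sulfoxide reductases repair oxidised methionine with electrons from thioredoxin, MSRA on one stereoisomer of the sulfoxide and the MSRB enzymes on the other. The single A-type gene and the B-type genes moved in opposite directions. MSRB1, the selenoprotein of cytosol and nucleus, stood at 21.8, 21.5, 25.4 and 22.4 FPKM in combination samples and 10.5, 10.3, 10.02 and 10.98 FPKM in DMSO samples. The groups were well apart, and the log2 fold change was 1.05 ± 0.0543 (SE, adjusted p = 9.18e-08). MSRB2, in mitochondria, and MSRB3, in the endoplasmic reticulum and mitochondria, were higher by less, at 7.03 ± 1.04 FPKM in combination samples and 4.82 ± 0.554 FPKM in DMSO samples (log2 fold change 0.46 ± 0.101 SE, adjusted p = 0.00218) and 11.7 ± 0.431 FPKM in combination samples and 8.20 ± 0.438 FPKM in DMSO samples (log2 fold change 0.46 ± 0.0435 SE, adjusted p = 6.83e-06). MSRA stood at 1.37, 1.49, 1.74 and 1.60 FPKM in combination samples and 3.32, 3.84, 3.87 and 3.53 FPKM in DMSO samples. It was lower without overlap, and the log2 fold change was -0.86 ± 0.0655 (SE, adjusted p = 1.46e-06), ranging from -1.30 to -0.40 over the settings.

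For the summed level of each family, the ratio of combination to DMSO was 2.881 for the membrane transferases, 2.097 for the peroxiredoxins, 2.031 for GSR with GSS, 1.612 for the soluble transferases, 1.587 for the methionine sulfoxide reductases, 1.489 for the glutaredoxins, 1.455 for the thioredoxins with TXNRD2 and 1.326 for the dismutases with catalase. The glutathione peroxidases were the one family of the 9 with a sum below that of DMSO. A sum mostly follows the abundant members of a family and need not hold for the others. TXN, for example, held 85.75% of its family's sum in combination samples and 76.92% in DMSO samples, while TXN2 and TXNRD2 were lower.

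Of the transcription regulators known to act on these genes, 10 of 11 were tested, with 6 higher and 4 lower. The background shares were 36.9% higher and 41% lower over all tested genes. MAFK, a small partner protein of NRF2 and BACH1, stood at 62.6, 64.6, 69.6 and 74.4 FPKM in combination samples and 8.35, 8.19, 9.05 and 8.92 FPKM in DMSO samples. The groups did not overlap, and the log2 fold change was 2.84 ± 0.0570 (SE, adjusted p = 1.86e-10). FOXO1, a stress-responsive factor of the forkhead family, was higher at 5.65 ± 0.278 FPKM in combination samples and 2.35 ± 0.112 FPKM in DMSO samples (log2 fold change 0.99 ± 0.0470 SE, adjusted p = 5.12e-08). KEAP1, which holds NRF2 for degradation, was lower at 9.70 ± 0.973 FPKM in combination samples and 23.1 ± 1.46 FPKM in DMSO samples (log2 fold change -1.17 ± 0.0703 SE, adjusted p = 2.62e-07), as was BACH1, a repressor at the same sites, at 4.10 ± 0.437 FPKM in combination samples and 5.76 ± 0.256 FPKM in DMSO samples (log2 fold change -0.41 ± 0.0639 SE, adjusted p = 0.000255). NFE2L2, the gene of NRF2 itself, was slightly lower at 18.9 ± 0.265 FPKM in combination samples and 21.0 ± 0.541 FPKM in DMSO samples (log2 fold change -0.14 ± 0.0290 SE, adjusted p = 0.00133), and so was its relative NFE2L1 at 48.04 ± 1.16 FPKM in combination samples and 53.3 ± 2.80 FPKM in DMSO samples (log2 fold change -0.15 ± 0.0401 SE, adjusted p = 0.00810). Both calls were lost with upper-quartile factors, at an adjusted p of 0.142 for NFE2L2 and 0.262 for NFE2L1, and that of NFE2L2 also with quantile normalization, at an adjusted p of 0.253.

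NRF2 with a small MAF protein binds the antioxidant response element, and its core was looked for because the members include genes known to carry it. RefSeq promoter windows on GRCh38.p14, from 250 bases before to 50 bases after the start, were on hand for 32 of the 41 genes (45 windows). The core, written TGACNNNGC and searched on both strands, was found in 6 of 45 windows (13.3%), the same share as in all 35116 windows (13.3%). These windows belong to GPX2, GSTA4, GSTM1, GSTO1, GSTP1 and MGST1. Of them, GSTA4, GSTO1, GSTP1 and MGST1 were tested and were higher, beside 61.1% of all tested members and 36.9% of all tested genes. For MGST1 the core was in the window at chr12:16346865-16347164 and not in its other windows. A link of the core to the direction of change was not tested. The AP-1 site TGANTCA was in 1 member window (2.22%), that of GSTP1, where it overlaps the core, and in 7.71% of all windows. The GC box GGGCGG was in 34 member windows (75.6%) and in 45% of all windows. Genes without an entry were GLRX3, GSR, SOD1, PRDX6, TXN2, MSRA, PRDX1, GSS and MGST2.

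To set the most changed gene beside the most abundant transferase, the 250 bases before the RefSeq start are printed for GPX3 (chr5:151020341-151020590) and GSTP1 (chr11:67583562-67583811), both on the plus strand and 5′ to 3′, with the core of the element in capitals. In GSTP1 the core begins 66 bases before the start, and in GPX3 its letters do not occur in this window. The GC content of these stretches is 64.4% for GPX3 and 74.8% for GSTP1. A match describes letters only, and no binding was measured here.
GPX3: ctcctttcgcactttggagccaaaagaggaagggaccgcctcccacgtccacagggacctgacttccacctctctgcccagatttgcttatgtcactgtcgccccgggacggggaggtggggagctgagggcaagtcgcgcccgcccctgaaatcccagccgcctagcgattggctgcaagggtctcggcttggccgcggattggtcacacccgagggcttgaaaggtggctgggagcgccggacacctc
GSTP1: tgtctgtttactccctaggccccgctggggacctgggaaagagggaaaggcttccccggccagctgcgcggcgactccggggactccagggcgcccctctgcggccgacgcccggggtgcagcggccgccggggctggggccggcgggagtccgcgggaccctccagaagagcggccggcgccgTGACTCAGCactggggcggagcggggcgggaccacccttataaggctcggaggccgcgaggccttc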

How the data were processed

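What the authors deposited was a single FPKM table covering 58735 genes, with 1 column for each sample (per the file headers). Bowtie 0.12.2 is named in the submitters' processing notes, as are mm8 and GRCh37, without their roles. All 58735 coordinates and merged exon lengths equal those of GENCODE 29 on GRCh38, so coordinates here are GRCh38. The counting tool and strand handling are not given in the sources used here.

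Members and gene lists were chosen with earlier results of these data known. The model was limma 3.58.1 in R 4.3.3 on log2(FPKM + 1), with the group as its single term and the variance trended on the mean. It covered 13296 genes whose mean reached 1 FPKM, with Benjamini-Hochberg adjustment over all of them. The code was also run on simulated reads with few changed genes, which does not check the scaling of the real data. Since FPKM times gene length came out as whole steps (100% of the nonzero values checked, within 0.02), the reads behind each value could be recovered (15189251 to 17324292 per library), and these were used for read numbers and voom. The scaling behind the FPKM divided by 0.954 to 1.003 times the library's reads in combination samples and 1.026 to 1.041 times in DMSO samples.

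Values in every sample are given for members with a called log2 change of at least 1, for the most abundant of each role and for those whose call depended on a setting. From the other lists, up to 2 called genes per direction, taken by smallest p, are named, plus TXNRD1, SRXN1, GCLC, GCLM and SLC7A11. Some genes of these lists are not reported here. PRDX2, GPX4, MSRA and MAFK were given per sample after their values were seen. NFE2L2 and NFE2L1 were named outside this rule, also after their values were seen. Alternatives were 5 scalings, other filters and pseudocounts, a replicate block, leaving out each sample and voom. Reads of 32 named pseudogenes were at most 0.563% of the reads of their member gene, apart from GSTM2 (3.31% in combination samples, 2.03% in DMSO samples). Figures used matplotlib 3.10.9.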

Additional observations from a re-analysis of the deposited data

Results flagged for a closer look

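In 4 of 72 groups of 4 samples, 1 sample of a tested member stood far from the other 3, and chance gives about 1 in 20 groups. GPX3 in DMSO sample 2 was at 0.673 FPKM, with the DMSO samples between 0.673 and 0.945 FPKM. TXN2 in combination sample 3 was at 43.7 FPKM, with the combination samples between 40.2 and 43.7 FPKM. GPX1 in DMSO sample 4 was at 377 FPKM, with the DMSO samples between 348 and 377 FPKM. PRDX2 in DMSO sample 3 was at 41.4 FPKM, with the DMSO samples between 41.4 and 42.8 FPKM. For GPX1, GPX3 and PRDX2 the sample apart lay on the same side of the other group as the rest of its own group, while TXN2 overlapped between groups.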

How the results depend on the processing

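Of 678 member results under 19 alternatives, 642 kept their direction and side of the threshold, 20 lost the call, 9 gained it and 7 changed sign. The 31 members other than CAT, TXN2, GSTK1, PRDX4 and GLRX2 kept their call under every alternative that tested them. All 7 changes of sign were in GSTZ1, which was never called, with log2 fold changes of 0.0516 (upper-quartile factors), 0.0012 (median-of-ratios factors) and 0.0312 (nuclear reads), and of -0.0308 to 0.0152 when 1 sample was left out. Leaving out 1 sample gave 21 to 23 members higher and 10 to 11 lower. The replicate number as a block gave 21 higher and 11 lower. Same-numbered samples did not deviate together (correlations of -0.02 to 0.07), and the labels do not state a pairing. With 4 samples per group, this cannot exclude that samples were handled in pairs. Scaling to nuclear reads gave 24 members higher and 10 lower, where the reported fit gave 22 and 11. GLRX2 and PRDX4 were called higher under that scaling, and TXN2 lost its call. With no filter 21 members were higher and with a filter of 5 FPKM 19. Over all genes, no filter gave 7747 higher, and the filter of 5 FPKM gave 2821 higher and 3277 lower, since fewer or more genes were tested. Without the filter, 2 other transferase and peroxidase genes and 4 oxidant-producing genes were higher. With the filter of 5 FPKM, 1 oxidant-producing gene was higher, and 1 thioredoxin companion, 1 selenocysteine machinery gene and 1 other transferase or peroxidase gene were lower. Upper-quartile factors gave 1 lower selenocysteine machinery gene and 2 lower transcription regulators, and quantile normalization 1 lower selenocysteine machinery gene, and the cause was not tested. Leaving out 1 sample changed the counts of the companion lists by at most 1. No scaling moved the median of all genes by more than 0.08 on the log2 scale.

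Depth limits the lowest members: GPX7 after the combination, GPX3 in DMSO and the 6 entries under the minimum level rest on few reads. MGST2 tested without the filter had an adjusted p of 0.0511. The drugs were not given singly in these samples, and FPKM are relative to the library, so total RNA per cell was not measured.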
